A study of Mus musculus with 12 samples.

Results

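The bone morphogenetic protein (BMP) genes described here are the ligands *Bmp2*, *Bmp3*, *Bmp4*, *Bmp5*, *Bmp6* and *Bmp7* and the receptors *Bmpr1a*, *Bmpr1b*, *Acvr1* and *Bmpr2*. They were taken by gene symbol, and all 10 were found among the 36186 gene rows of the RNA-Seq table. RNA-Seq was carried out on 12 libraries from the E15.5 mouse forelimb zeugopod, the segment that holds the radius and ulna, in a mixed 129/CD-1 background. Wild type (WT) cartilage gave 3 libraries from each of the resting, proliferative and hypertrophic compartments, isolated by laser capture microdissection (LCM). The other 3 libraries came from *Hoxa9,10,11*-/-;*Hoxd9,10,11*-/- mutants (*aadd*), which carry frameshift mutations of 6 Hox genes in the germline. In the GEO labels the hypertrophic compartment is named hyperproliferative, and the *aadd* libraries bear the compartment name resting. By the study's methods the whole chondrocyte population of the *aadd* zeugopod was taken as 1 sample, and the captured cells were mostly chondrocytes with some perichondrium. A compartment of the WT was thus set against all chondrocytes of the mutant.

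BMP ligands are secreted dimers that bind pairs of type I and type II serine/threonine kinase receptors, after which Smad1, Smad5 and Smad9 are phosphorylated and enter the nucleus with Smad4. In cartilage the pathway drives condensation and chondrocyte differentiation, and its range is set by secreted antagonists such as noggin and gremlin. *Bmpr1a* and *Bmpr1b* encode the classical type I receptors of cartilage, *Acvr1* encodes the type I receptor ALK2, and *Bmpr2* encodes a type II receptor.

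Expression is given as NRPKM, the RPKM values deposited by the authors. They are per unit of length, so that levels of different genes can be set side by side within a library. Depth was estimated at 1890000 to 3240000 reads per library from the value of 1 read in 1885 single-exon genes. Any scaling between libraries within NRPKM, which is not described, would enter this estimate. The least covered value of a member rested on about 17 reads (*Bmpr1b* in hypertrophic replicate 3). RNA of the 6 mutated genes was present in *aadd*. *Hoxd9*, *Hoxd10* and *Hoxd11* were higher there than in WT resting without overlap (*Hoxd10* 39.6 to 52.1 against 12.2 to 23.3 NRPKM), *Hoxa11* was lower without overlap (11.1, 5.17 and 10.00 against 23.0, 30.5 and 11.3 NRPKM), and *Hoxa9* and *Hoxa10* overlapped. Cartilage matrix markers summed to 2486 to 5142 NRPKM in the resting, proliferative and *aadd* libraries. In hypertrophic replicates 2 and 3 they summed to 716 and 1049, and 10 osteoclast markers summed to 1351 and 995 against 9.76 to 51.5 in all other libraries. Hypertrophic replicate 1 stood apart from these, at a root mean square log2 distance of 1.11 and 1.04 against 0.613 between them, and its cartilage sum was 2998. Each called difference of a member that used this library is also given without it, as is each called pathway gene whose difference it moved by over 1.5-fold. In *aadd*, 10 hypertrophic chondrocyte markers summed to 79.7 to 107 NRPKM, below the 114 to 134 of WT resting, and 10 joint markers summed to 263 to 283 against 138 to 174. In bulk samples of this kind, fewer cells of a type and less RNA per cell cannot be told apart.

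A gene was called where limma gave an unadjusted *P* up to 0.05 together with a sufficient fold change (FC). The FC had to be at least 2 between WT compartments, or at least 1.5 between *aadd* and WT resting. These are the *P* and FC limits of the study. For *aadd* against WT the study also applied an Audic Claverie test to pooled reads, which by its account found more differences. That test was not run here. FC and log2 differences are on the log2(NRPKM + 0.1) scale. All 10 members passed the filter of 5 NRPKM in at least 3 libraries, as did 10936 genes in all, and the Benjamini-Hochberg adjusted *P* over these genes is given beside each call. The comparisons with WT resting share the same 3 resting libraries.

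Among the 6 ligands, RNA in WT resting cartilage came mostly from *Bmp5* and *Bmp7*, and in WT hypertrophic cartilage mostly from *Bmp2*, *Bmp3* and *Bmp4*. Other ligands of the family are outside this sum. *Gdf10* had 33.3, 26.8 and 40.5 NRPKM in WT resting, and *Bmp8a* had 10.8, 21.8 and 26.0 in WT hypertrophic libraries. In WT resting, mean levels ran *Bmp5* (32.4 ± 4.0 NRPKM, SD, n = 3), *Bmp7* (28.4 ± 12.5), *Bmp2* (18.9 ± 5.3), *Bmp6* (8.6 ± 3.7), *Bmp4* (8.4 ± 2.9) and *Bmp3* (3.9 ± 1.7). The one gap between neighbours that exceeded the spread of the libraries lay between *Bmp2* and *Bmp6*. In WT hypertrophic the order was *Bmp2* (41.6 ± 19.5), *Bmp3* (35.2 ± 16.0), *Bmp4* (31.9 ± 13.2), *Bmp7* (28.5 ± 10.5), *Bmp5* (15.7 ± 4.4) and *Bmp6* (14.2 ± 9.8), and the ranges of all neighbours overlapped. WT proliferative cartilage was intermediate, with *Bmp7* first (40.7 ± 11.98), then *Bmp5*, *Bmp4* and *Bmp2* between 26.7 and 23.8 and *Bmp3* and *Bmp6* at 10.7 and 10.6, again with overlapping neighbours. *Bmp5* and *Bmp7* together made up 60.4% ± 5.1 of the summed ligand NRPKM in WT resting, 49.5% ± 2.6 in WT proliferative and 26.2% ± 1.9 in WT hypertrophic. The libraries of the 3 compartments did not overlap in this share. The *Bmp3* share was 3.9% ± 1.6 in WT resting, 7.8% ± 3.2 in WT proliferative and 23.1% ± 12.8 in WT hypertrophic, where replicate 1 had 8.27% and the other two had 30.6% and 30.4%.

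**Figure D1:**
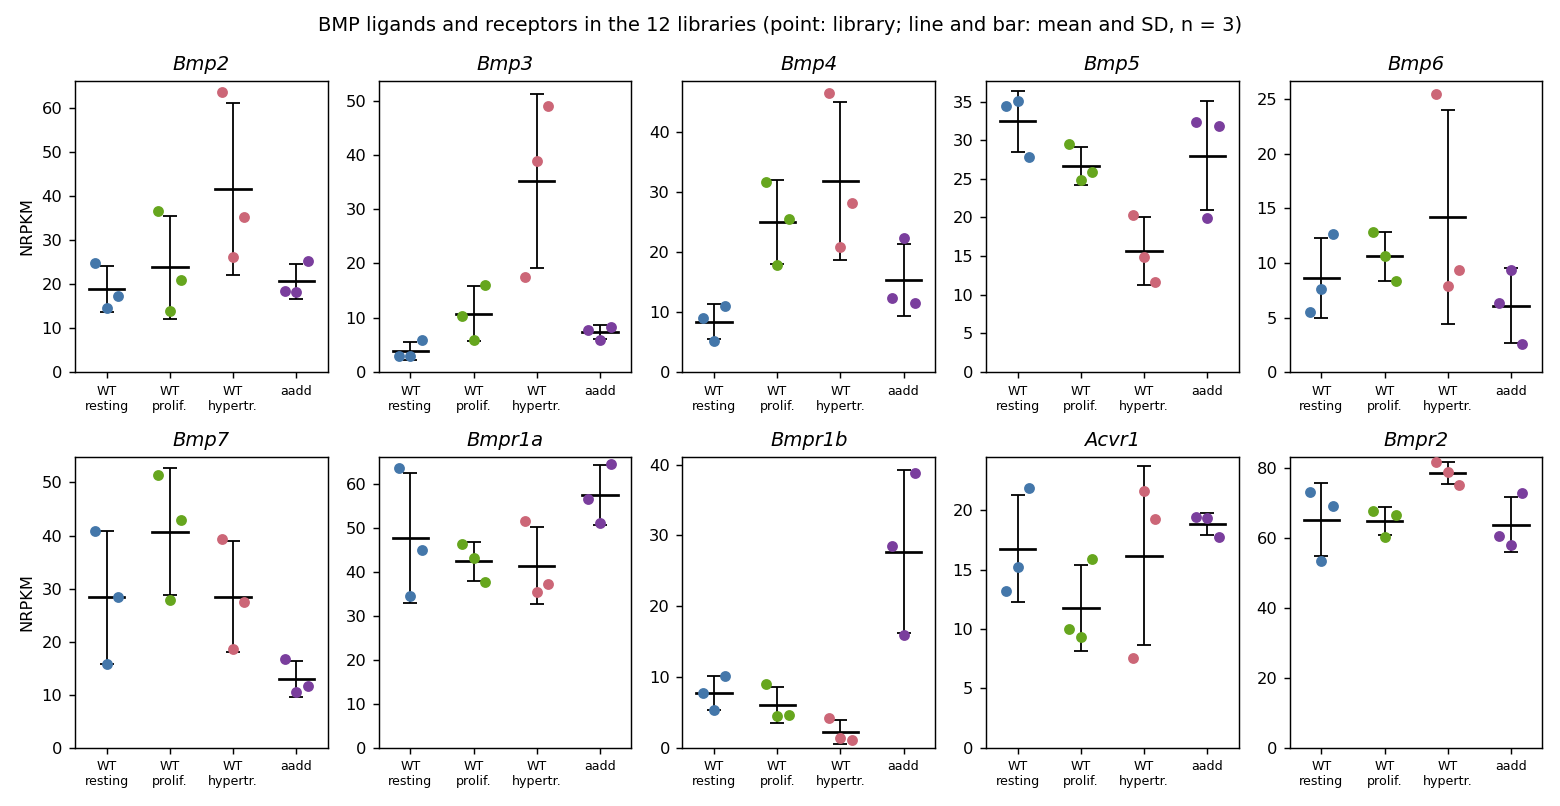
NRPKM (vertical axes, from 0) of the 6 ligands and 4 receptors in each of the 12 libraries by group, with points for libraries and lines and bars for mean and SD (n = 3). *Bmp3* is highest in the 3 hypertrophic libraries (17.6 to 48.9), and *Bmpr1b* in the 3 *aadd* libraries (15.9 to 38.8).

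**Figure D2:**
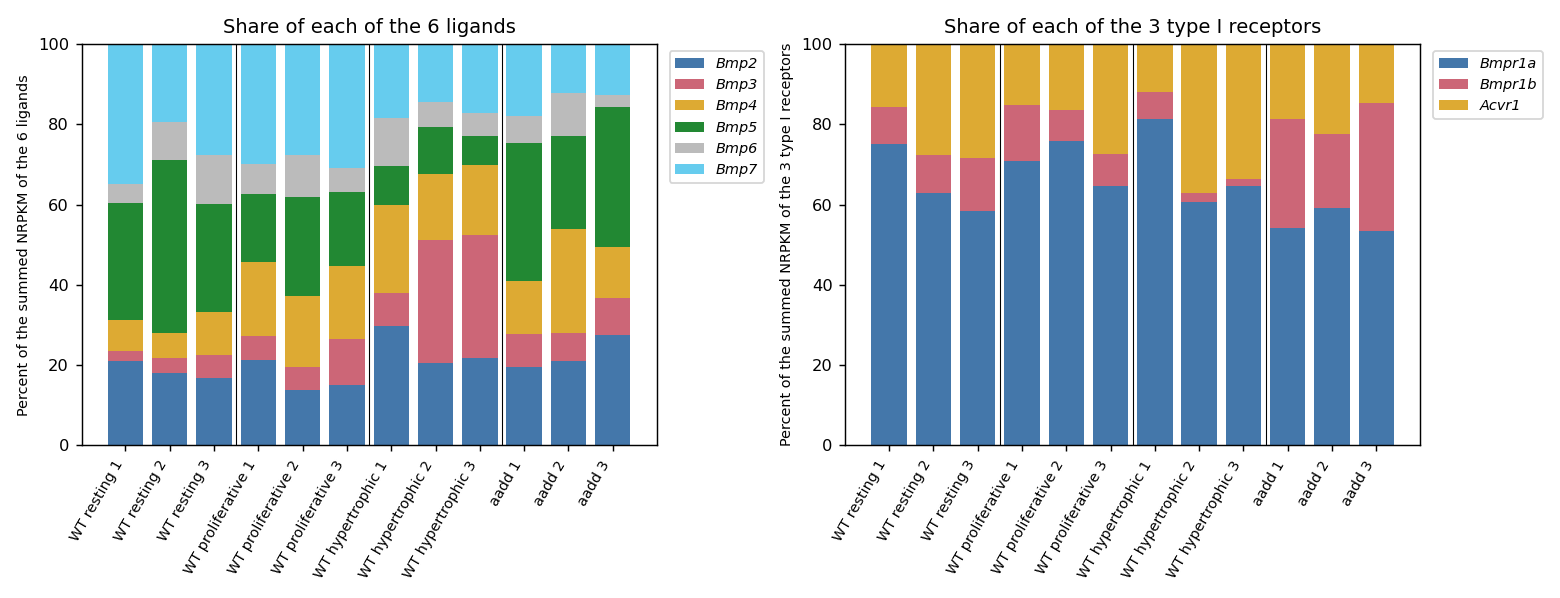
Percent of the summed NRPKM contributed by each of the 6 ligands (left) and each of the 3 type I receptors (right), 1 bar for each library. *Bmp5* and *Bmp7* together hold 54.6% to 64.1% of the ligand sum in WT resting and 24.4% to 28.1% in WT hypertrophic, and *Bmpr1b* holds 18.4% to 32.0% of the type I receptor sum in *aadd*.

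*Bmp3*, which encodes a BMP that counters the osteogenic members of the family, gave the largest difference between WT compartments of the 10 genes. The resting libraries had 2.87, 3.03 and 5.85 NRPKM. The proliferative libraries had 10.3, 5.87 and 16.0 NRPKM. The hypertrophic libraries had 17.6, 38.9 and 48.9 NRPKM. Every proliferative library was above every resting one, though the nearest pair had 5.87 and 5.85, and every hypertrophic library was above every proliferative one. The log2 difference was 1.39 ± 0.43 (SE) from resting to proliferative (FC 2.62, limma adjusted *P* = 0.211), and the call was lost without resting replicate 1 or resting replicate 2. From proliferative to hypertrophic it was 1.69 ± 0.51 (FC 3.24, limma adjusted *P* = 0.186), and 2.13 with an adjusted *P* of 0.0324 without hypertrophic replicate 1. From resting to hypertrophic *Bmp3* rose 8.49-fold (log2 difference 3.09 ± 0.46, limma adjusted *P* = 0.0189), and the log2 difference was 3.52 without hypertrophic replicate 1 (adjusted *P* = 0.00293).

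*Bmp4*, one of the core ligands of limb patterning and chondrogenesis, rose between resting and proliferative cartilage. Its resting libraries had 8.98, 5.22 and 11.0 NRPKM and its proliferative libraries 31.8, 17.8 and 25.5. In the hypertrophic libraries it was 46.5, 20.8 and 28.2. The resting libraries lay below all 6 others, whereas proliferative and hypertrophic libraries overlapped. The log2 difference was 1.59 ± 0.34 from resting to proliferative (FC 3.01, limma adjusted *P* = 0.114), and the call held under each of 14 alternative settings. From proliferative to hypertrophic it was 0.31 ± 0.36 (95% interval -0.58 to 1.19), and -0.0067 without hypertrophic replicate 1. From resting to hypertrophic it was 1.90 ± 0.39 (FC 3.72, limma adjusted *P* = 0.0451), and 1.58 without that library (adjusted *P* = 0.0293).

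The *Bmp4* row spans chr14:46383520-46390599 on the minus strand (mm10) and overlaps a predicted gene row, *Gm15217*, that reached no more than 1.98 NRPKM in any library, so a small part of its reads could be shared. The 250 bases before its RefSeq start (GRCm38.p6, chr14:46390670-46390919, minus strand, outside all GENCODE exons) are shown because *Bmp4* was the ligand called between resting and proliferative under every setting. None of the motifs searched on both strands, the posterior HOX core TTTAT or TTTAC, the RUNX core TGTGGT and the SMAD element GGCGCC, occurs in this window.

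Bmp4: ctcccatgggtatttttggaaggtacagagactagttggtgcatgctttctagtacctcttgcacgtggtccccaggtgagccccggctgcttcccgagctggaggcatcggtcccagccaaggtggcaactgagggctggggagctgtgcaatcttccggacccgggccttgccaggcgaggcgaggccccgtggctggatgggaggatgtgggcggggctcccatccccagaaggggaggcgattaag

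Of 32851 windows of this length in the RefSeq table, 51.2% held the HOX core, 14% the RUNX core and 9.59% the SMAD element. Windows were found for 7 of the 10 members, and not for *Bmp2*, *Bmp3* and *Bmp7*.

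*Bmp2*, the ligand tied to chondrocyte maturation and fracture repair, was higher in hypertrophic than in resting cartilage. Its resting libraries had 24.8, 14.6 and 17.3 NRPKM and its proliferative libraries 36.6, 13.8 and 20.9. The hypertrophic libraries had 63.5, 26.2 and 35.1. Resting and hypertrophic libraries did not overlap, but the lowest hypertrophic value was only slightly above the highest resting one, and proliferative values overlapped both. The log2 difference between hypertrophic and resting was 1.07 ± 0.38 (FC 2.10, limma adjusted *P* = 0.137). The call was lost after quantile normalization and without resting replicate 2, resting replicate 3 or hypertrophic replicate 1 (log2 difference 0.72).

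*Bmp5*, which encodes the ligand mutated in the *short ear* mouse, was the ligand that went the other way. It had 34.4, 35.03 and 27.9 NRPKM in resting, 29.5, 24.8 and 25.8 in proliferative and 20.4, 14.9 and 11.7 in hypertrophic libraries. All hypertrophic values were below all others, and the resting and proliferative libraries overlapped. *Bmp5* fell by 1.07 ± 0.25 on the log2 scale from resting to hypertrophic (FC 2.11, limma adjusted *P* = 0.0575). This call was lost without hypertrophic replicate 3, and without hypertrophic replicate 1 the log2 difference was -1.28 (adjusted *P* = 0.0107). From proliferative to hypertrophic the log2 difference was -0.80 ± 0.25 (limma adjusted *P* = 0.189), an FC of 1.74 that missed the criterion, and without hypertrophic replicate 1 it was -1.01 (adjusted *P* = 0.0285) and was called.

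*Bmp6* and *Bmp7* were not called between any WT compartments. *Bmp7*, a close relative of *Bmp5* and *Bmp6*, had 40.9, 15.8 and 28.4 NRPKM in resting, 51.4, 27.8 and 43.0 in proliferative and 39.4, 18.5 and 27.5 in hypertrophic libraries. In each compartment replicate 1 was the highest and replicate 2 the lowest, and the 3 compartments overlapped. Its log2 difference was 0.58 ± 0.40 from resting to proliferative (95% interval -0.38 to 1.53) and 0.04 ± 0.43 from resting to hypertrophic (-0.99 to 1.07). Each proliferative library was above the resting library of the same number. With replicate number as a block, the unadjusted limma *P* for resting to proliferative was 0.0218 in place of 0.192 (adjusted 0.195 with the block), under the FC limit. *Bmp6*, a ligand known from hypertrophic cartilage and from iron regulation, ranged from 5.53 to 12.8 NRPKM in resting and proliferative libraries and was 25.5, 7.85 and 9.34 in hypertrophic ones. Of the hypertrophic libraries, replicate 1 alone was outside the range of the resting and proliferative ones. The log2 difference from resting to hypertrophic was 0.60 ± 0.52 (-0.65 to 1.86), and 0.08 without that library.

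Among receptors *Bmpr1b* fell in the hypertrophic compartment, and no call was made for the other members of this group between WT compartments. *Bmpr1b* encodes the type I receptor that binds Gdf5 with high affinity and is required for digit cartilage. It had 7.77, 5.28 and 10.2 NRPKM in resting, 9.03, 4.46 and 4.67 in proliferative and 4.18, 1.34 and 1.04 in hypertrophic libraries. Each hypertrophic value was below all resting and proliferative values, and hypertrophic replicate 1 was close to the lowest proliferative one. The log2 difference was -0.38 ± 0.36 from resting to proliferative (95% interval -1.24 to 0.48), with no call. From proliferative to hypertrophic it was -1.60 ± 0.56 (FC 3.04, limma adjusted *P* = 0.215), and -2.18 with an adjusted *P* of 0.0206 without hypertrophic replicate 1. That call was lost when proliferative replicate 1 or either of hypertrophic replicates 2 and 3 was left out, and the gene did not pass a filter taken over these 6 libraries alone. From resting to hypertrophic *Bmpr1b* fell by 1.98 ± 0.53 on the log2 scale (FC 3.94, limma adjusted *P* = 0.0807), called under each of 14 alternatives, and by 2.56 without hypertrophic replicate 1 (adjusted *P* = 0.00502).

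*Bmpr2*, the type II receptor gene, was the highest of the receptor genes in every group. It had 73.2, 53.6 and 69.2 NRPKM in resting, 67.9, 60.4 and 66.7 in proliferative and 81.7, 79.0 and 75.3 in hypertrophic libraries. The 3 hypertrophic values lay above the other 6, but the log2 difference was small, 0.28 ± 0.16 against proliferative (95% interval -0.11 to 0.66) and 0.28 ± 0.18 against resting (-0.16 to 0.72). *Bmpr1a* had 63.7, 34.5 and 44.9 NRPKM in resting, 46.4, 43.1 and 37.6 in proliferative and 51.4, 35.5 and 37.1 in hypertrophic libraries. The ranges were nested, and the log2 difference from resting to hypertrophic was -0.18 ± 0.28 (-0.86 to 0.50). *Acvr1*, the gene mutated in fibrodysplasia ossificans progressiva, had 13.2, 15.2 and 21.9 NRPKM in resting, 9.98, 9.35 and 15.9 in proliferative and 7.58, 21.7 and 19.3 in hypertrophic libraries. Its groups overlapped, and hypertrophic replicate 1 was the lowest of the 12 libraries. The log2 difference of *Acvr1* was -0.52 ± 0.29 from resting to proliferative (-1.21 to 0.17) and -0.16 ± 0.44 from resting to hypertrophic (-1.22 to 0.90). With replicate number as a block, its unadjusted limma *P* for resting to proliferative was 0.0228 in place of 0.117 (adjusted 0.199 with the block), under the FC limit. In all 3 WT compartments the mean levels ran *Bmpr2*, *Bmpr1a*, *Acvr1* and *Bmpr1b*, and only *Bmpr2* and *Bmpr1a* in resting cartilage overlapped as neighbours.

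Counted over the 10 members, 2 were called higher and 0 lower in proliferative than in resting cartilage, where 2.56% and 2.97% of all genes were called. The libraries of the 2 groups did not overlap for 2 members, *Bmp3* and *Bmp4*, against 24% of all genes, and no member passed an adjusted *P* of 0.05, against 0.622%. In hypertrophic against proliferative, 1 member was called higher (all genes 5.32%) and 1 lower (4.34%), and 4 did not overlap (24.2%). No gene of the 10936 passed adjustment in that comparison (0%), although 2115 genes and 3 members had an unadjusted *P* under 0.05. In hypertrophic against resting, 3 were called higher (5.84%) and 2 lower (7.2%), 6 did not overlap (32%), and 2 passed adjustment (6.36%). The median log2 difference of the members was 0.13, 0.26 and 0.16 in these 3 comparisons, beside -0.06, 0.04 and -0.02 for all genes tested. With all 4 groups in limma's F test, 4 members had an adjusted *P* under 0.05, against 13.8% of all genes: *Bmpr1b* (0.0059), *Bmp3* (0.00721), *Bmp4* (0.0273) and *Bmp5* (0.0474). *Bmp3* and *Bmpr1b* stayed under 0.05 in each alternative (up to 0.0355 and 0.0245), whereas *Bmp4* reached 0.081 and *Bmp5* 0.197.

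Sums of cell type markers also differed between the WT compartments. Of 10 hypertrophic chondrocyte markers tested, 7 were called higher in proliferative than in resting (all genes 2.56%) and 9 in hypertrophic than in resting (5.84%). The sum of the 10 went from 114 to 134 NRPKM in resting to 546 to 726 in proliferative and 1235 to 2626 in hypertrophic libraries. Osteoblast markers summed to 254 to 532, 634 to 1472 and 1809 to 3856 NRPKM, with *Bglap2* at 0 in all resting and proliferative libraries. Endothelial markers summed to 35.3, 274 and 201 NRPKM in the hypertrophic libraries and to 2.98 to 15.0 in resting and proliferative ones. Macrophage markers summed to 24.0, 257 and 226 against 13.2 to 27.9, and erythroid markers to 130, 450 and 481 against 63.4 to 166. Of the 3 hypertrophic libraries, replicate 1 had the lowest of each of these sums. It had the highest *Bmp2* (63.5 NRPKM) and *Bmp4* (46.5), the lowest *Bmp3* (17.6) and the highest *Bmp5* (20.4) and *Bmpr1b* (4.18). The part of these cells in the differences of *Bmp2*, *Bmp3*, *Bmp4*, *Bmp5* and *Bmpr1b* was not tested.

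**Figure D3:**
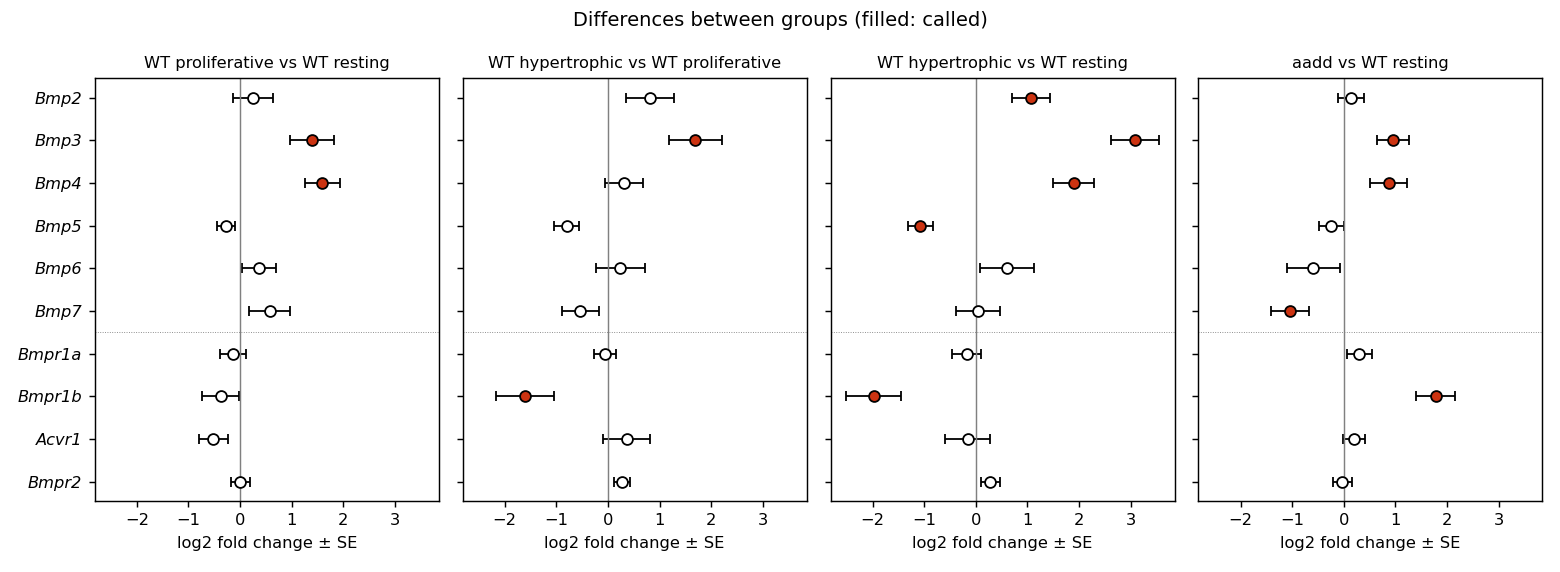
Log2 difference in NRPKM ± SE (horizontal axis) of the 10 members in the 4 comparisons, from limma fits of 3 against 3 libraries, with filled points for genes called. *Bmp3* is called higher in all 4, and *Bmpr1b* is lower in the 2 comparisons of the hypertrophic compartment and higher in *aadd*.

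The comparison of *aadd* with WT resting asked how expression in the mutant chondrocytes differed from that of the WT resting compartment. *Bmpr1b* gave the largest difference among the members, *Bmp3* and *Bmp4* were called higher, and *Bmp7* was called lower. No member passed adjustment in limma, where 4 had an unadjusted *P* under 0.05. Of the 10 members 3 were called higher and 1 lower, against 3.78% and 2.78% of all genes, and 3 did not overlap between the groups, against 15.4%. An adjusted *P* under 0.05 was reached by 0.119% of all genes. The median log2 difference was 0.17 for the members and 0.01 for all genes.

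*Bmpr1b* had 28.5, 15.9 and 38.8 NRPKM in *aadd*, against 7.77, 5.28 and 10.2 in WT resting. The lowest mutant library was above the highest of all 9 WT libraries, which had 10.2 NRPKM. The log2 difference was 1.78 ± 0.38 (FC 3.45, limma adjusted *P* = 0.212), and the gene was called under each of 14 alternatives, over which the adjusted *P* ran from 0.132 to 0.535. Its share of the summed type I receptor NRPKM was 25.9% ± 6.9 in *aadd*, beside 10.7% ± 2.2 in WT resting, 9.9% ± 3.4 in WT proliferative and 3.6% ± 2.6 in WT hypertrophic. *Bmpr1b* was last of the 4 receptor genes in the WT compartments. In *aadd* its mean (27.7 NRPKM) was above that of *Acvr1* (18.8), with higher values in 2 of 3 libraries and overlapping ranges. Joint markers were also higher in *aadd* than in WT resting, with 5 of 9 tested called (all genes 3.78%) and a sum of 263 to 283 NRPKM. Of 9 perichondrium and tendon markers 2 were called higher (all genes 3.78%), and the sum of the list was 421, 658 and 434 against 318 to 459 NRPKM. Skeletal muscle markers summed to 45.4, 62.5 and 19.2 against 8.63 to 13.3. Within *aadd*, replicate 2 had the highest of these last 2 sums, the lowest joint sum (263 against 283 and 267 NRPKM) and the lowest *Bmpr1b*. The part of such cells in the *Bmpr1b* difference was not tested.

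The *Bmpr1b* row spans chr3:141837136-142169218 on the minus strand (mm10). Windows were available for 3 RefSeq starts, all inside the row. None was available for the upstream end of the row at 142169218. The 250 bases before the most upstream of the 3 starts (GRCm38.p6, chr3:141982265-141982514, minus strand) lie within the row and outside all GENCODE exons. They are shown, with the posterior HOX core in capitals, because this is the receptor gene that differed between the Hox mutants and every WT library. The HOX core was found 3 times, 2 of them overlapping, and the RUNX core and SMAD element were not found.

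Bmpr1b: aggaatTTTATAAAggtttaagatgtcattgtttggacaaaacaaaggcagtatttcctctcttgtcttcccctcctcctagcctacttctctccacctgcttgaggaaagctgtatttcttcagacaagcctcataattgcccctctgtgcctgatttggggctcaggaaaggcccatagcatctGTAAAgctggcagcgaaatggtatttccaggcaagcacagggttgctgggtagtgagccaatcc

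The windows before the other 2 starts held 1 match to the HOX core each. The window of *Bmp5*, which was not called between *aadd* and WT resting, also held 3 matches. Its GC content was 42.8%, beside 46.8% in the *Bmpr1b* window shown. Since 51.2% of all windows hold it, a match is a description of the letters and not a binding site.

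*Bmp7* had 16.8, 10.4 and 11.7 NRPKM in *aadd*, against 40.9, 15.8 and 28.4 in WT resting. The groups overlapped in that the highest mutant library was above resting replicate 2, and 2 of 3 mutant libraries were below all 9 WT libraries. *Bmp7* fell by 1.05 ± 0.37 on the log2 scale (FC 2.07, limma adjusted *P* = 0.431). The call was lost without resting replicate 1, resting replicate 3, *aadd* replicate 2 or *aadd* replicate 3. Its share of the summed NRPKM of the 6 ligands was 14.3% ± 3.1 in *aadd* and 27.3% ± 7.7 in WT resting.

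*Bmp3* had 7.70, 5.98 and 8.36 NRPKM in *aadd*, just above the 2.87, 3.03 and 5.85 of WT resting and within the range of WT proliferative. The log2 difference was 0.95 ± 0.30 (FC 1.94, limma adjusted *P* = 0.376), lost with all 12 libraries in one fit and without resting replicate 1, resting replicate 2 or *aadd* replicate 3. *Bmp4* had 12.4, 22.4 and 11.5 NRPKM, against 8.98, 5.22 and 11.0. The nearest libraries of the 2 groups were 11.5 and 11.0. The log2 difference of *Bmp4* was 0.87 ± 0.36 (FC 1.83, limma adjusted *P* = 0.511). It ran from 0.57 to 1.09 with 1 library left out. The call was lost in 8 of 14 alternatives, among them no filter, both rescalings and leaving out *aadd* replicate 1 or 2. *Aadd* replicate 2, the highest in *Bmp4*, differed from replicates 1 and 3 in marker sums. Osteoblast markers summed to 622 NRPKM in it against 218 and 256, and endothelial markers to 33.3 against 8.75 and 5.73. Macrophage markers summed to 45.2 against 15.4 and 13.3. The part of such cells in the *Bmp4* difference was not tested.

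The other 6 members were not called between *aadd* and WT resting. *Bmp2* had 18.5, 18.1 and 25.1 NRPKM in *aadd* (log2 difference 0.14 ± 0.25, 95% interval -0.45 to 0.73), and *Bmp5* had 32.3, 19.9 and 31.8 (-0.24 ± 0.24, -0.80 to 0.32). *Bmp6*, at 6.36, 9.38 and 2.55, gave -0.59 ± 0.51 (-1.79 to 0.62). For the receptors, *Bmpr1a* had 56.5, 51.0 and 64.5 (0.30 ± 0.25, -0.29 to 0.90), *Acvr1* had 19.4, 19.4 and 17.8 (0.20 ± 0.22, -0.31 to 0.71) and *Bmpr2* had 60.8, 58.1 and 72.8 NRPKM (-0.03 ± 0.19, -0.48 to 0.42). All 6 overlapped with WT resting. The summed ligands came to 90.4 ± 4.0 NRPKM in *aadd* and 100.6 ± 18.2 in WT resting, and the summed receptors to 167.8 ± 24.9 and 137.5 ± 25.8. Ligands in *aadd* ran *Bmp5*, *Bmp2*, *Bmp4*, *Bmp7*, *Bmp3* and *Bmp6*, and *Bmp7* and *Bmp3* were the one pair of neighbours without overlap.

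The rest of the pathway was followed in a list of 80 genes, of which 58 passed the filter. Between resting and proliferative cartilage 10 were called higher (all genes 2.56%) and 5 lower (2.97%), with a median log2 difference of -0.12. Of 13 tested genes that are known targets of BMP signalling or markers of the differentiation it drives, 7 were called higher and 0 lower. With replicate number as a block *Id4*, a gene induced by BMP signalling and named here for this change of call, was also called lower (8.54, 5.98 and 1.91 NRPKM in proliferative, 14.8, 8.51 and 10.3 in resting, log2 difference -1.22). The 7 included *Ihh*, the hedgehog ligand of prehypertrophic cells (0.783, 0.275 and 0.517 NRPKM in resting, 20.1, 27.0 and 40.5 in proliferative, log2 difference 5.58, limma adjusted *P* = 0.00867), *Col10a1*, the hypertrophic collagen (4.48, adjusted *P* = 0.0252), and *Sp7*, which encodes osterix (4.10, adjusted *P* = 0.0754). *Ihh*, *Col10a1*, *Runx2* and *Sp7* are also in the marker lists for hypertrophic chondrocytes or osteoblasts. Among other ligands *Bmp8a* was higher (2.77, adjusted *P* = 0.215), and *Gdf6* (-1.92, adjusted *P* = 0.235) and *Gdf1* (-1.69, adjusted *P* = 0.119) were lower. Of 10 secreted antagonists, *Chrdl1*, which encodes a chordin-like protein, was called higher (1.10, adjusted *P* = 0.286) and *Nbl1*, which encodes the antagonist DAN, lower (-2.13, adjusted *P* = 0.284). *Tll1*, a chordin-cleaving protease gene, was higher (1.04, adjusted *P* = 0.0754), and *Sulf1*, a heparan sulphate sulphatase gene (-1.60, adjusted *P* = 0.159), and *Eng*, the co-receptor endoglin (-1.15, adjusted *P* = 0.285), were lower. The calls of *Ihh*, *Col10a1*, *Sp7* and *Gdf1* held in all 14 alternatives. *Sulf1* kept its call in 13 of 14, *Tll1* in 9, *Chrdl1* and *Eng* in 6, and of 13 in which they were tested *Bmp8a* kept its call in 12, *Gdf6* in 9 and *Nbl1* in 8. None of the 10 Smads and Smad regulators was called, nor any of 4 other receptors of the family. Some Smad genes had an unadjusted limma *P* under 0.05 and missed only the FC limit. *Smad1* was higher (0.97, FC 1.96, adjusted *P* = 0.114). *Smurf1* (-0.88, FC 1.84, adjusted *P* = 0.135) and *Ski* (-0.68, FC 1.60, adjusted *P* = 0.193) were lower.

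With all 3 hypertrophic libraries used, the secreted antagonists were called lower in hypertrophic cartilage or not at all. Against resting, 0 of 10 were called higher (all genes 5.84%) and 5 lower (7.2%), with a median log2 difference of -1.02 beside -0.02 for all genes. *Fstl1*, which encodes a follistatin-like BMP-binding protein, had 65.9, 65.0 and 64.6 NRPKM in hypertrophic and 143, 157 and 170 in resting libraries (log2 difference -1.26, limma adjusted *P* = 0.0106). *Grem1*, which encodes gremlin, gave the largest fall (-3.54, adjusted *P* = 0.119), at 0, 1.32 and 0.205 against 1.03, 8.38 and 6.92 NRPKM. The *Grem1* call was lost without hypertrophic replicate 1, the library listed at 0 (-2.63), or without resting replicate 2, resting replicate 3 or hypertrophic replicate 3. *Nbl1* was also lower (-1.31, adjusted *P* = 0.115), called in 9 of 13 alternatives, and *Fstl1* was called in all 14. Against proliferative, 4 antagonists were called lower (all genes 4.34%). Among them were *Grem1* (-2.40, limma adjusted *P* = 0.256), *Chrdl1* (-1.88, adjusted *P* = 0.214) and *Bmper*, a crossveinless-related gene (-1.37, adjusted *P* = 0.126). Of these *Bmper* was called in all 14 alternatives, *Chrdl1* in 9 of 14 and *Grem1* in 5 of 13, and without hypertrophic replicate 1 *Grem1* was at -1.49 with no call. Without hypertrophic replicate 1, 7 antagonists were called lower and 1 higher against resting, and 4 lower and 1 higher against proliferative. The gene called higher in both was *Sostdc1*, with 2.20, 36.2 and 18.8 NRPKM in the hypertrophic libraries. Its log2 difference without replicate 1 was 1.92 against resting (limma adjusted *P* = 0.0834) and 2.61 against proliferative (0.0237).

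Other ligands, Smads and enzymes also differed between hypertrophic and resting cartilage. *Bmp8a* had 10.8, 21.8 and 26.0 NRPKM in hypertrophic and 0, 0.521 and 0.326 in resting libraries (log2 difference 5.95, limma adjusted *P* = 0.0102). *Gdf1* (-3.34, adjusted *P* = 0.00413), *Gdf5* (-2.69, adjusted *P* = 0.0968) and *Gdf10* (-2.65, adjusted *P* = 0.0561) were lower. *Smad6*, an inhibitory Smad gene that is itself a target of the pathway, was the one called of 10 Smads and regulators (1.28, adjusted *P* = 0.0418). Against proliferative both *Smad6* (2.13, adjusted *P* = 0.148) and *Smurf1*, a ubiquitin ligase gene for Smads (1.09, adjusted *P* = 0.146), were higher, called in all 14 and in 10 of 14 alternatives. *Pcsk6*, a proprotein convertase gene, had 48.7, 40.4 and 67.7 NRPKM against 6.15, 6.71 and 7.98 in resting (2.87, adjusted *P* = 0.00349), and *Sulf2* was lower (-1.40, adjusted *P* = 0.0476). The co-receptor gene *Rgma* was lower (-2.75, adjusted *P* = 0.064) and the pseudoreceptor gene *Bambi* higher (1.5, adjusted *P* = 0.0758). Of the targets, 6 were higher, among them *Col10a1* (5.93, adjusted *P* = 0.00217), *Ihh* (5.11, adjusted *P* = 0.0133) and *Dlx6* (4.98, adjusted *P* = 0.0106), and 3 were lower, *Sox9* (-2.35, adjusted *P* = 0.156), *Id4* (-1.94, adjusted *P* = 0.0964) and *Atoh8* (-1.31, adjusted *P* = 0.0658). Over the alternatives the log2 difference of *Ihh* ran down to 3.83 and that of *Dlx6* to 2.96. Without hypertrophic replicate 1 *Gdf5* was at -3.59 (adjusted *P* = 0.00407), *Gdf10* at -3.32 (0.00283), *Rgma* at -3.56 (0.000817), *Sox9* at -3.42 (0.000817), *Id4* at -2.55 (0.00727) and *Ihh* at 4.37 (0.0025). The genes named here against resting were called in all 14 alternatives, other than *Gdf5* and *Id4*, lost without resting replicate 1, and *Sox9*, lost without any 1 of the libraries but hypertrophic replicate 1. Over the 58 genes, 10 were higher (all genes 5.84%) and 13 lower (7.2%) against resting, and 12 had a limma adjusted *P* under 0.05 (6.36%). Without hypertrophic replicate 1 the counts were 14 and 17. Against proliferative, *Bmp8a* (log2 difference 3.18), *Pcsk6* (2.26), *Col10a1* (1.45) and *Bmp1*, a chordin-cleaving protease gene (1.07), were also called higher. *Gdf10* (-2.67), *Gdf5* (-2.58), *Sox9* (-2.42), *Rgma* (-2.18) and *Gdf1* (-1.65) were called lower, and of these 9 genes *Bmp1* and *Sox9* kept the call in 8 and 9 of 14 alternatives and the others in all or all but 1. Without hypertrophic replicate 1 *Gdf10* was at -3.34 (limma adjusted *P* = 0.00858), *Gdf5* at -3.48 (0.00702), *Sox9* at -3.49 (0.003) and *Rgma* at -2.98 (0.00351). The counts against proliferative were 6 and 9 (all genes 5.32% and 4.34%), with none passing adjustment among 25 with an unadjusted limma *P* under 0.05. Without that library they were 12 and 13.

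Between *aadd* and WT resting, 6 of the 58 pathway genes were called higher (all genes 3.78%) and 1 lower (2.78%). None passed adjustment in limma, and 7 had an unadjusted *P* under 0.05. The median log2 difference was 0.08. *Gdf5*, a ligand of joints that signals through *Bmpr1b*, had 34.6, 26.4 and 24.4 NRPKM in *aadd* and 17.4, 8.42 and 7.43 in resting libraries (log2 difference 1.44 ± 0.34, adjusted *P* = 0.253). *Gdf6*, its close relative, had 7.97, 10.8 and 5.79 against 1.05, 1.41 and 3.43 (2.13 ± 0.44, adjusted *P* = 0.205). Neither gene overlapped between the groups, and both are in the joint marker list. *Sulf1* had 67.0, 57.1 and 60.2 against 21.3, 12.9 and 28.9 NRPKM (1.61 ± 0.30, adjusted *P* = 0.182), also without overlap. *Tgfbr3*, which encodes betaglycan (0.89, adjusted *P* = 0.437), *Chrdl1* (0.73, adjusted *P* = 0.498) and *Tll1* (0.67, adjusted *P* = 0.349) were the other 3 called higher. *Smad9*, which encodes a receptor-activated Smad, was called lower (-0.65, adjusted *P* = 0.426). *Gdf5* and *Gdf6* were called in all 14 alternatives and *Sulf1* in 13, all but the one fit of 12 libraries. *Tll1* was called in 12, *Tgfbr3* in 10, and *Chrdl1* and *Smad9* in 7 each. Of the 13 targets tested, 0 were called in either direction, with a median log2 difference of -0.04.

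**Figure D4:**
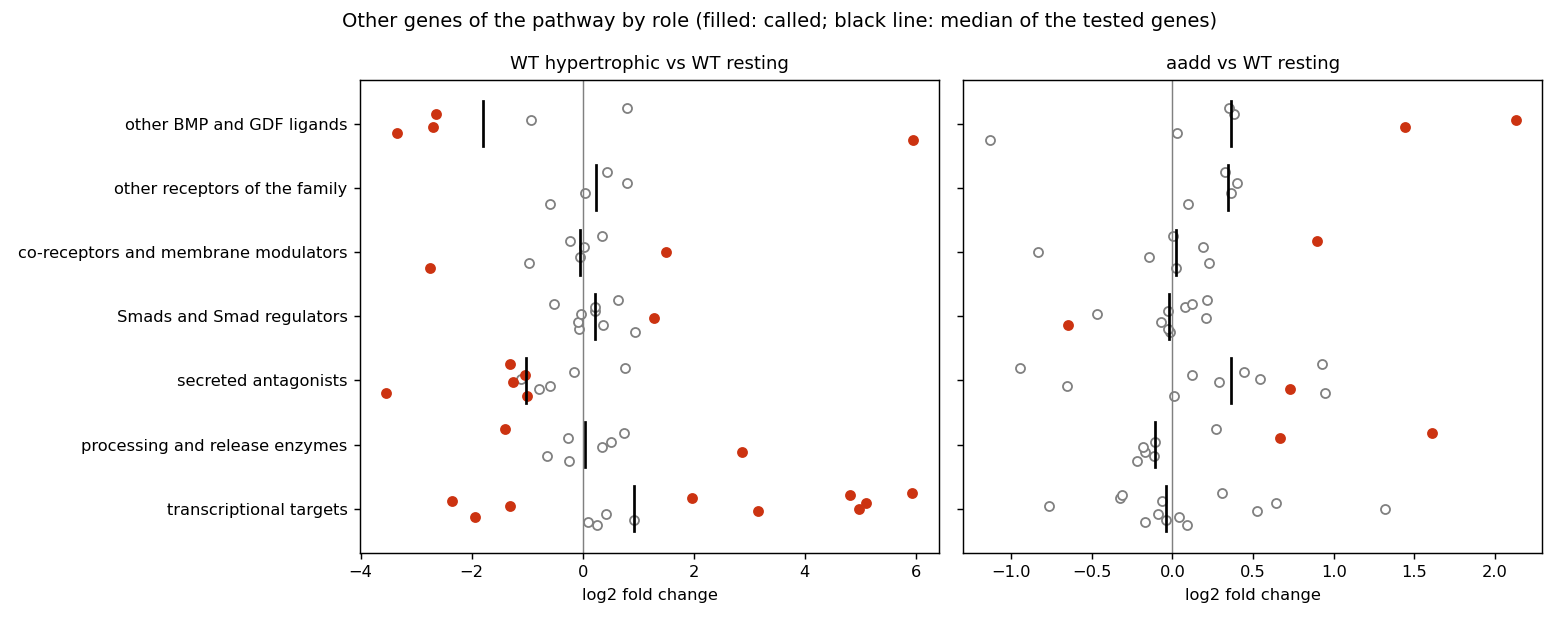
Log2 difference (horizontal axes, with different ranges in the 2 panels) of the 58 other pathway genes that passed the filter, by role, for WT hypertrophic against WT resting and for *aadd* against WT resting. Filled points are genes called and black lines are medians. Secreted antagonists have a median of -1.02 in the hypertrophic compartment and 0.36 in *aadd*, where none of the 13 targets is called.

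For the 4 members with an adjusted *P* under 0.05 in the F test, the genes whose log2 level was most alike over the 12 libraries were listed as a description. For *Bmpr1b* these were *Alcam* (Pearson's *r* = 0.973), *Lphn3* (0.965) and *Tbx18* (0.960), and for *Bmp3* they were *Dock9* (0.957), *Sdc2* (0.955) and *Cdh2* (0.953). *Bmp4* was most like *Zfp608* (0.938), *Iscu* (0.910) and *Maf* (0.908). *Bmp5* was most like *Slc35e3* (0.949), *Adamts19* (0.946) and *Zfp637* (0.946). The 12 points fall in 4 groups and share their libraries, and without hypertrophic replicate 1 these *r* values ran from 0.876 to 0.978.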

How the data were processed

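The deposited RPKM values (NRPKM) were computed by the authors in GeneSpring, after removal of low-quality, multiply aligned and duplicate reads; the submitters' processing notes name TopHat and mm10. The use of strand and the scaling between libraries are not given in the sources used here. RNA was amplified, so read numbers cover counting error only.

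Groups came from the labels. limma 3.58.1 (R 4.3.3) was fitted to log2(NRPKM + 0.1) of the 6 libraries of each comparison, without covariates, for the 10936 genes that reached 5 NRPKM in 3 or more libraries. Scripts were tested on simulated data. The study speaks of 3 independent sets and does not say whether they were separate embryos, so *P* values measure the spread between these libraries.

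WT resting and WT proliferative libraries that share a number deviated together from their groups (*r* across genes of 0.281, 0.179 and 0.198), and these numbers were taken as pairs. The errors, intervals and *P* values printed for that comparison are from the fit without this pairing. With the replicate block no call of a member changed there, but unadjusted limma *P* values were lower for several. *Bmp7* went from 0.192 to 0.0218 (adjusted 0.195) and *Acvr1* from 0.117 to 0.0228 (adjusted 0.199), both under the FC limit. *Bmp3* went from 0.0161 to 0.00212 (adjusted 0.102) and *Bmp4* from 0.00272 to 0.000662 (adjusted 0.0799).

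Members, lists and tests were chosen with earlier results of these data known. Named are the 10 members, up to 3 called pathway genes of largest change for each role, comparison and direction, and the 3 genes most correlated with each member that passed the F test. A few other pathway genes are named for the reason given beside them. Alternatives were a pseudocount of 1, 2 other filters, 2 rescalings (median of ratios and quantiles), 1 fit of all libraries, the replicate block, a variance trend, and each library left out. Promoter windows are from RefSeq (GRCm38.p6).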

Additional observations from a re-analysis of the deposited data

How the results depend on the processing

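The number of members called was 1 (in place of 2) between hypertrophic and proliferative cartilage with the filter taken over the 6 libraries compared, which *Bmpr1b* did not pass, and 2 (in place of 4) in the F test with no filter. With all 12 libraries in one fit, 4 pathway genes (in place of 7) were called between *aadd* and WT resting, and the cause was not tested. Leaving out 1 library, members called ran from 1 to 2 in proliferative against resting, from 1 to 3 in hypertrophic against proliferative, from 1 to 3 in *aadd* against resting and from 2 to 5 in the F test. Pathway genes called in hypertrophic against proliferative ran from 8 without hypertrophic replicate 3 to 25 without hypertrophic replicate 1. The replicate block changed 1 call of a member in the pairwise comparisons, *Bmp4* in *aadd* against resting (limma adjusted *P* = 0.58), and replaced *Bmp5* by *Bmp7* in the F test, where 4 members again passed. Under it *Bmp4* in hypertrophic against resting had an adjusted *P* of 0.0588, and pathway calls were 16, 14, 23 and 9 in the order of the report, in place of 15, 15, 23 and 7; the gene added between proliferative and resting was *Id4*. Of the pathway calls, 7 of 15, 6 of 15, 16 of 23 and 2 of 7 in that order held in every alternative in which the gene was tested. For comparisons other than proliferative against resting the numbers were not taken as pairs, since *r* ran from -0.0973 to 0.28. Of the 6 libraries compared, 6 correlated best with their own number in hypertrophic against resting and 3 in each of the other two.

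Differences near 0 changed sign, none of them called. Under quantile normalization *Bmpr2* in proliferative against resting was -0.075 and *Bmp7* in hypertrophic against resting -0.043. With 1 library left out, log2 differences in proliferative against resting ran from -0.12 to 0.58 for *Bmp2*, from -0.34 to 0.10 for *Bmpr1a* and from -0.13 to 0.091 for *Bmpr2*. In hypertrophic against proliferative they ran from -0.0067 to 0.57 for *Bmp4*, from -0.28 to 0.56 for *Bmp6* and from -0.22 to 0.050 for *Bmpr1a*. In hypertrophic against resting they ran from -0.33 to 0.36 for *Bmp7*, from -0.39 to 0.051 for *Bmpr1a* and from -0.43 to 0.32 for *Acvr1*. In *aadd* against resting they ran from -0.028 to 0.35 for *Bmp2* and from -0.16 to 0.062 for *Bmpr2*. At the depth of these libraries, *Bmpr1b* in hypertrophic replicate 3 and *Bmp4* in resting replicate 2 rested on about 17 and 26 reads, counting errors of 24.5% and 19.7%.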
